A study of Homo sapiens with 4 samples.

Results

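The genes described here encode the kinases that phosphorylate the translation factor eIF2, the proteins that direct its dephosphorylation, inhibitors of the kinases, and the relay that reports mitochondrial stress to them. They were taken by symbol: EIF2AK1, EIF2AK2, EIF2AK3 and EIF2AK4, then PPP1R15A and PPP1R15B, then DNAJC3 and IMPACT, then OMA1 and DELE1. All 10 were found among the 16057 genes of the table, DELE1 under its current symbol, and all 10 were among the 12042 genes that passed the filter on low values, a mean level across the 4 libraries of 1 TPM or more. TPM is a level corrected for how long each transcript is, with the same total in every library. RNA was sequenced from MM.1S, an established human multiple myeloma line, which is a malignancy of antibody-secreting plasma cells. The cells were exposed for 26 h to JG342, an inhibitor that acts on HSP70 chaperones at an allosteric site, at 350 nM, or to the solvent DMSO, with 2 libraries per treatment that the series describes as biological replicates. The data therefore cover 1 cell line, 1 dose and 1 time, and they measure transcripts, not kinase activity or phosphorylated eIF2.

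Phosphorylation of the alpha subunit of eIF2 slows the start of translation in general and favours translation of a few mRNAs, among them that of the transcription factor ATF4; this is the integrated stress response (ISR). Each kinase senses a different stress: EIF2AK1 (HRI) lack of heme and, through the OMA1 and DELE1 relay, mitochondrial damage; EIF2AK2 (PKR) double-stranded RNA; EIF2AK3 (PERK) misfolded proteins in the endoplasmic reticulum (ER); and EIF2AK4 (GCN2) uncharged tRNA and stalled ribosomes. PPP1R15A (GADD34), which is induced by stress, and PPP1R15B (CReP), which is made constitutively, each bring protein phosphatase 1 to eIF2 and so end the signal. Plasma cells carry a heavy load of secretory protein.

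The promoter sequences of the members that rose are shown first, with that of PPP1R15B for comparison. RefSeq promoters (GRCh38.p14, from 250 bases before to 50 bases after the annotated start site) were matched for 9 of the 10 members; EIF2AK1 had no entry. The authors' genome build is not given in the sources used here, so these are reference promoters and not regions measured in the libraries. Sequences run 5′ to 3′ along the gene's strand over the 250 bases before the start site, and capitals mark a motif match. PPP1R15A lies at chr19:48872171-48872420 on the + strand, PPP1R15B at chr1:204411818-204412067 on the - strand, EIF2AK4 at chr15:39933865-39934114 on the + strand, and IMPACT at chr18:24426420-24426669 on the + strand.
PPP1R15A: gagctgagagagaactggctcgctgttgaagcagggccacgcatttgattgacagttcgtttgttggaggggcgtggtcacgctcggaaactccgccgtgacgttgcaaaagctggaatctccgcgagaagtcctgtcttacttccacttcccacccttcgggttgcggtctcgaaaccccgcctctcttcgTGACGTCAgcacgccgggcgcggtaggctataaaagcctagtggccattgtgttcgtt
PPP1R15B: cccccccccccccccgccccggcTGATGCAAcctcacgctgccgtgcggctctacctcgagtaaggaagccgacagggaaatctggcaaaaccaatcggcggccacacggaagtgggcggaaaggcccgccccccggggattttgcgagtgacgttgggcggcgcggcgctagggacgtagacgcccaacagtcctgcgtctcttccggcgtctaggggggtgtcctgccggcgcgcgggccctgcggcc
EIF2AK4: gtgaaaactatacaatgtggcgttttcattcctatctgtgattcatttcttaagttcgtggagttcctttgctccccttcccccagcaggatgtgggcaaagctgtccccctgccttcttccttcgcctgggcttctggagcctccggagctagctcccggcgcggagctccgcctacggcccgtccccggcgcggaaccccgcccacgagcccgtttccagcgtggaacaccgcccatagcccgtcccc
IMPACT: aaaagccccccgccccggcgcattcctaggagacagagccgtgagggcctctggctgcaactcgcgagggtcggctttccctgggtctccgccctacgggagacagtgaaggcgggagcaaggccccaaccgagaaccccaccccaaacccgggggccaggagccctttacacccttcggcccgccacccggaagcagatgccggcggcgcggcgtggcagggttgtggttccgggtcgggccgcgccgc

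5 motifs were searched on both strands, and none of the matches overlapped another. The cyclic AMP response element (CRE), TGACGTCA, which ATF and CREB factors bind, was found in PPP1R15A from base -58 to -51, counting the first transcribed base as 0, and in 1.85% of the 35116 promoters of this length. The C/EBP-ATF composite element, searched as TGATGNAA, which ATF4 with C/EBP partners binds, was found in PPP1R15B from base -227 to -220 and in 3.62% of all promoters. The interferon-stimulated response element (ISRE), searched as GAAA, 2 bases of any kind and GAAA, was found in EIF2AK2 from base -6 to 3 and in 3.57% of all promoters. It is shown with 40 bases before and 10 bases from the start site, at chr2:37156971-37157020 on the - strand, because EIF2AK2 is a known interferon-stimulated gene.
EIF2AK2: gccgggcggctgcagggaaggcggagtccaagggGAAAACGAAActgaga
Neither of the ER stress elements searched, ERSE (CCAAT, 9 bases of any kind and CCACG) and ERSE-II (ATTGG, 1 base of any kind and CCACG), occurred in the 9 windows; they occurred in 0.0769% and 0.0541% of all promoters. These letters were not in the EIF2AK4 and IMPACT windows for any of the 5 motifs. A match is a description of the letters only.

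Before the results, the libraries were compared. The typical fitted gene had a level of 20.4 and 20.9 TPM with DMSO and of 22.1 and 21.2 TPM with JG342 (medians), and each library summed to between 994463 and 994718 TPM. Of 10 plasma cell markers, all 10 were above 0 in every library (lowest value 22.0 TPM), with a summed level of 14838 to 15116 TPM in DMSO and 10251 to 10940 TPM in JG342. Most of that sum in every library was JCHAIN, the joining chain of secreted antibodies, and its fall was about as large as that of the sum. JCHAIN went from a mean of 10145 to 5581 TPM (log2 fold change -0.86, limma adjusted p 0.00117). Among the 10 markers the transcription factors IRF4 (0.77, limma adjusted p 0.000986) and PRDM1 (0.36, limma adjusted p 0.041) were called as higher. JCHAIN and the receptor gene TNFRSF17 (-0.44, limma adjusted p 0.0472) were called as lower. Of all fitted genes 10.8% were called as higher and 7.62% as lower. With no filter on low values, after scaling to equal medians or without the mean-variance trend, 1 marker was called as higher and 1 as lower. The part of the marker differences in the results below was not tested. The erythroid list was checked because EIF2AK1 is best known from red cell precursors: the 7 of its 9 markers analysed here summed to between 8.51 and 9.0 TPM in DMSO and 11.5 to 12.2 TPM in JG342, most of it HBB, and ALAS2 and GATA1 did not exceed 0.15 TPM in any library. The summed levels in DMSO and JG342 were 9.75 to 12.9 and 11.1 to 14.6 TPM for 3 of 5 T cell markers, 37.4 to 46.2 and 39.6 to 46.2 TPM for 4 of 5 myeloid markers (nearly all LYZ), 6.35 to 8.09 and 6.15 to 11.2 TPM for 5 of 5 epithelial markers, and 0.16 to 0.22 and 0.13 to 0.19 TPM for 3 of 5 fibroblast markers.

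After JG342, transcripts of PPP1R15A, EIF2AK4 and IMPACT rose, and none of the 10 members fell. On mean TPM, PPP1R15A was 4.17-fold, EIF2AK4 2.14-fold and IMPACT 1.90-fold the DMSO level. The other 7 did not pass the test; their log2 fold changes lay between -0.28 (EIF2AK2) and 0.38 (PPP1R15B). Changes were tested across all fitted genes with limma on log2(TPM + 1), and p-values are Benjamini-Hochberg adjusted over 12042 genes with a threshold of 0.05. The 3 members called, all higher, stand against 18.4% of all fitted genes called in either direction, 10.8% as higher and 7.62% as lower. The median log2 fold change of the 10 members was 0.26, against 0.03 for all fitted genes. With a block for the replicate number, 5 members and 4207 genes passed in place of 3 and 2221; the 2 added members are PPP1R15B and DNAJC3. Without DMSO replicate 1, 2 members passed, because IMPACT missed the threshold, and without JG342 replicate 2, 4 passed, DNAJC3 being the addition.

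**Figure D1:**
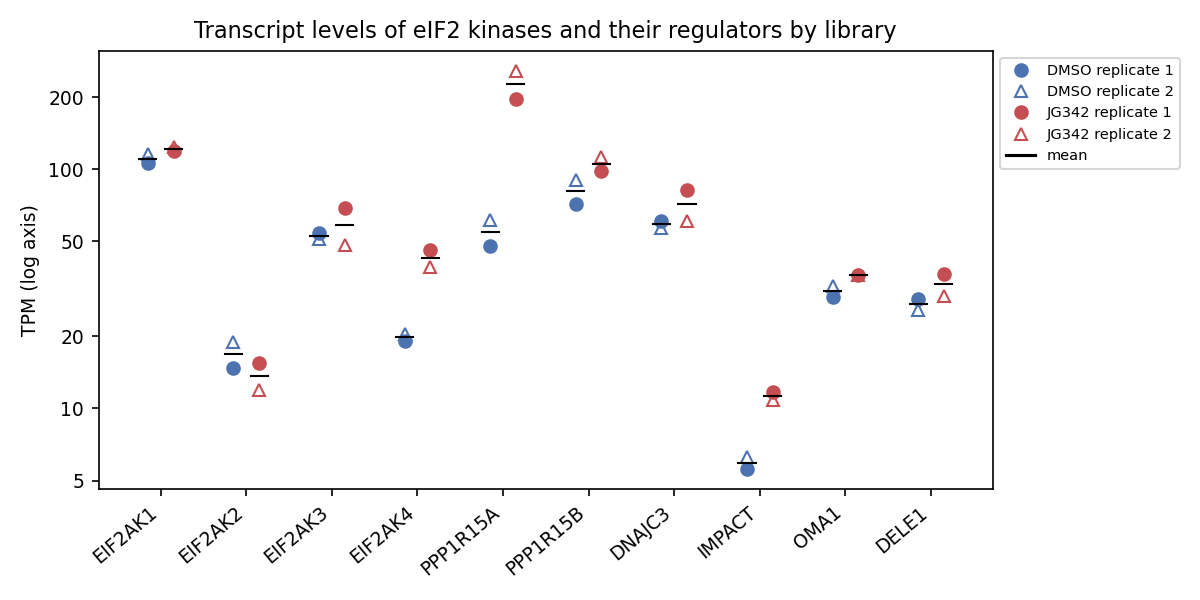
TPM (log axis) of the 10 genes in each library; circles are replicate 1, triangles replicate 2, blue DMSO, red JG342, and black bars the mean of 2 libraries. Both JG342 libraries sit well above both DMSO libraries for EIF2AK4, PPP1R15A and IMPACT, whereas treatments overlap for EIF2AK2 and EIF2AK3.

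**Figure D2:**
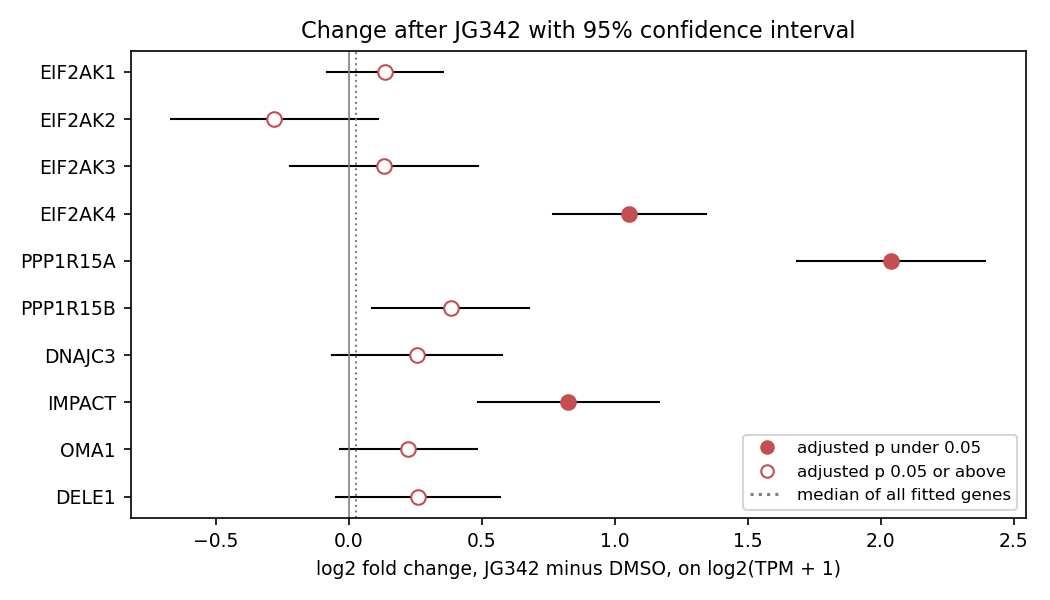
Log2 fold change of each gene, JG342 minus DMSO on the log2(TPM + 1) scale, with limma's 95% confidence interval; filled points passed the adjusted threshold of 0.05 and the dotted line is the median of all fitted genes, 0.03. The intervals of PPP1R15A, EIF2AK4 and IMPACT start at 1.68, 0.77 and 0.49, and the interval of PPP1R15B also lies above 0 although its adjusted p did not pass.

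The kinase genes differed in level with DMSO alone. In DMSO, EIF2AK1 (NM_001134335 in the table) made up 54.7% and 55.97% of the summed TPM of the 4 kinase genes, EIF2AK3 (NM_001313915) 27.8% and 24.8%, EIF2AK4 (NM_001013703) 9.89% and 9.99%, and EIF2AK2 (NM_001135651) 7.61% and 9.20%. In the order of DMSO levels over all 10 members, EIF2AK1 came first at 111 ± 6.63 TPM (SD, n = 2) and IMPACT last at 5.94 ± 0.48 TPM. The 10 were ordered EIF2AK1, PPP1R15B, DNAJC3, PPP1R15A, EIF2AK3, OMA1, DELE1, EIF2AK4, EIF2AK2 and IMPACT. Neighbours in that order overlapped between libraries for DNAJC3 with PPP1R15A and for PPP1R15A with EIF2AK3.

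EIF2AK4, the sensor of uncharged tRNA, stood at 19.2 and 20.6 TPM in DMSO replicates 1 and 2 and at 45.97 and 38.96 TPM in JG342 replicates 1 and 2. Both treated libraries were above both controls, and the lowest treated value was 1.89-fold the highest control value. The rise was 1.05 ± 0.13 SE on the log2 scale (95% interval 0.77 to 1.34; limma adjusted p 0.00131), the 245th largest rise of the 12042 genes. Its share of the summed kinase TPM went from 9.94% ± 0.07 (SD, n = 2) to 17.96% ± 0.65.

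For EIF2AK1, the heme-regulated kinase that also receives the mitochondrial signal, the values were 106 and 115 TPM in DMSO and 120 and 123 TPM in JG342. The treated libraries were above the controls by a narrow margin, and the difference of 0.14 ± 0.10 SE did not pass (95% interval -0.08 to 0.35; limma adjusted p 0.365). It was 0.07 without DMSO replicate 1. Exons of AIMP2 on the opposite strand cover 9.59% of its exon bases in GENCODE 29, and it is not stated whether counting used strand, so reads there cannot be assigned. It remained the most abundant kinase transcript in every library, at 47.9% and 55.5% of the kinase total after JG342.

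EIF2AK3, the ER kinase, read 53.9 and 51.2 TPM in DMSO and 68.7 and 48.3 TPM in JG342. The 2 treated libraries fell on either side of the controls, and the difference of 0.13 ± 0.16 SE did not pass (95% interval -0.22 to 0.49; limma adjusted p 0.598). Without JG342 replicate 1 it was -0.12. Antisense gene AC104134.1 covers 14.4% of its exon bases.

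EIF2AK2, the sensor of double-stranded RNA, read 14.7 and 18.95 TPM in DMSO and 15.4 and 11.95 TPM in JG342. The treatments overlapped, and the difference of -0.28 ± 0.17 SE did not pass (95% interval -0.67 to 0.11; limma adjusted p 0.287). It was -0.45 without DMSO replicate 1 and without JG342 replicate 1, and -0.11 without DMSO replicate 2 and without JG342 replicate 2. EIF2AK2 took 5.78% ± 0.57 of the kinase total after JG342, against 8.40% ± 1.13 in DMSO. That total was 194 and 206 TPM in DMSO and 250 and 223 TPM in JG342, so the lower share also reflects a larger total. The shares of EIF2AK2 and EIF2AK4 did not overlap between treatments (exact permutation p 0.33 for each, two-sided, the smallest that 2 libraries against 2 can give), and those of EIF2AK1 and EIF2AK3 did (exact permutation p 0.667 for each). Adjustment over the 5 shares tested here and below cannot bring any of them to the threshold.

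**Figure D3:**
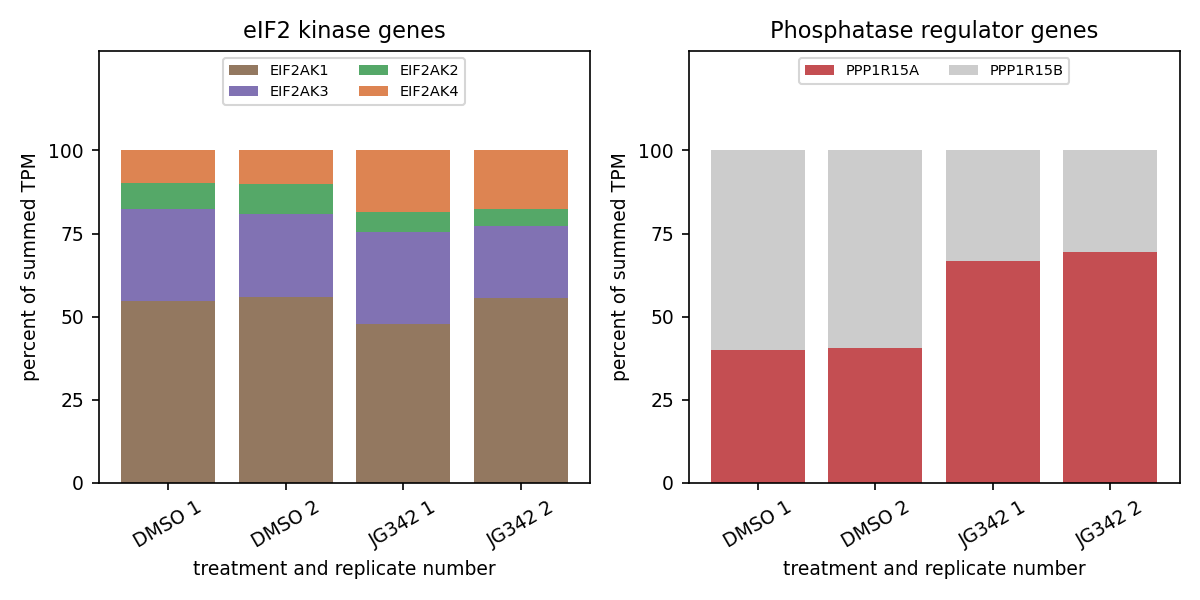
Percent of summed TPM in each library (labelled by treatment and replicate number) taken by each eIF2 kinase gene (left) and by PPP1R15A and PPP1R15B (right). The orange EIF2AK4 segment is 9.89% and 9.99% with DMSO and 18.4% and 17.5% with JG342, and the red PPP1R15A segment 39.9% and 40.5% against 66.7% and 69.6%.

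Of the phosphatase regulators, the gene with the higher level was not the same with DMSO as with JG342. PPP1R15A (NM_014330), the stress-induced one, was at 47.6 and 61.5 TPM in DMSO and at 197 and 258 TPM in JG342. Every treated value was at least 3.20-fold every control value. The rise of 2.04 ± 0.16 SE on the log2 scale (95% interval 1.68 to 2.39; limma adjusted p 0.000137) was the 52nd largest of the fitted genes. The fold was alike in the same-numbered libraries, 4.14 for replicate 1 and 4.19 for replicate 2, although replicate 2 was the higher in both treatments.

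PPP1R15B (NM_032833), the constitutive regulator, was at 71.8 and 90.3 TPM in DMSO and at 98.2 and 113 TPM in JG342. The treated libraries were above the controls, but the lowest treated value was only 1.09-fold the highest control value. The difference of 0.38 ± 0.13 SE did not pass (95% interval 0.09 to 0.68; limma adjusted p 0.0732). With a block for the replicate number it did (limma adjusted p 0.00037, and 0.0146 with median scaling in addition). Replicate 2 was higher than replicate 1 in both treatments, and leaving out single libraries moved the difference between 0.22 and 0.55.

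In DMSO, PPP1R15B was the more abundant of the pair in both libraries, and after JG342 it was PPP1R15A. PPP1R15A held 40.2% ± 0.47 (SD, n = 2) of their summed TPM in DMSO and 68.2% ± 2.00 after JG342, a difference of 27.95 percentage points (exact permutation p 0.33, the smallest possible). Leaving out single libraries gave 26.5 to 29.4 points. The summed TPM of both genes was 119 and 152 in DMSO and 295 and 371 in JG342.

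The kinase inhibitors gave different values. IMPACT (NM_018439) competes with EIF2AK4 for its activator GCN1 and so holds the kinase back. It stood at 5.60 and 6.28 TPM in DMSO and at 11.7 and 10.9 TPM in JG342, with the treated libraries above the controls. The rise was 0.83 ± 0.15 SE on the log2 scale (95% interval 0.49 to 1.17; limma adjusted p 0.00767), and without DMSO replicate 1 it was 0.75 with a limma adjusted p of 0.0515. IMPACT was the least abundant of the 10 members in every library, so EIF2AK4 transcripts outnumbered IMPACT transcripts throughout: the ratio was 3.42 and 3.28 in DMSO and 3.92 and 3.59 in JG342. GCN1 itself was at 31.2 and 30.1 TPM in DMSO and 28.4 and 24.2 TPM in JG342 and did not pass (log2 fold change -0.22, limma adjusted p 0.255). The ratio of EIF2AK4 to GCN1 was 0.61 and 0.68 in DMSO and 1.62 and 1.61 in JG342. These ratios were chosen after the values were seen and are given as descriptions.

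DNAJC3 (NM_006260), the J-domain protein p58IPK, was named as an inhibitor of PKR, is also described as one of PERK, and works with the ER chaperone HSPA5. It stood at 60.8 and 56.98 TPM in DMSO and at 81.6 and 60.9 TPM in JG342. JG342 replicate 2 exceeded the higher control by a ratio of 1.002, so the groups were barely separate. The difference of 0.26 ± 0.14 SE did not pass (95% interval -0.06 to 0.58; limma adjusted p 0.237). It passed once a block for the replicate number was added (limma adjusted p 0.0346), but not with the block and median scaling together (limma adjusted p 0.132). It also passed without JG342 replicate 2 (0.46, limma adjusted p 0.0353), and without JG342 replicate 1 the difference was 0.05. The ratio of DNAJC3 to EIF2AK3 was 1.13 and 1.11 in DMSO and 1.19 and 1.26 in JG342, with no overlap between treatments (exact permutation p 0.33, the smallest possible). This ratio was not among the planned comparisons and is given as a description. Any separation of 2 libraries from 2 gives the same p-value. JG342 replicate 1 was above JG342 replicate 2 for both genes, as it was for 8 of the 10 genes in the ER list described below and for 56.5% of all fitted genes.

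The mitochondrial relay did not pass in either member. OMA1 (NM_145243), the inner membrane protease that cleaves DELE1 under stress, read 29.2 and 32.5 TPM in DMSO and 35.99 and 36.3 TPM in JG342. The treated libraries were close to each other and above both controls, with a difference of 0.22 ± 0.11 SE (95% interval -0.04 to 0.48; limma adjusted p 0.206). Exons of DAB1 on the same strand cover 6.91% of the OMA1 exon bases.

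DELE1 (NM_001142603), whose cleaved form binds EIF2AK1 in the cytosol, read 28.7 and 25.9 TPM in DMSO and 36.6 and 29.5 TPM in JG342. The treated libraries were above the controls, the lower one by a ratio of 1.02, and the difference was 0.26 ± 0.14 SE (95% interval -0.05 to 0.57; limma adjusted p 0.219). It was 0.11 without JG342 replicate 1 and 0.41 without JG342 replicate 2. OMA1 and DELE1 were at similar levels: their ratio ranged from 0.98 to 1.25 over the 4 libraries and overlapped between treatments. The upper bounds of the intervals for EIF2AK1, OMA1 and DELE1 were 0.35, 0.48 and 0.57. Those of the other members that did not pass were 0.11 (EIF2AK2), 0.49 (EIF2AK3), 0.58 (DNAJC3) and 0.68 (PPP1R15B). All of these were below the lower bound of the EIF2AK4 interval, 0.77, so this is not particular to the relay. The differences between genes were not tested. In bulk RNA, more RNA in each cell and a larger number of cells with a high level cannot be told apart for any of these genes.

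The rest of the pathway was followed in lists of genes, given by counts beside the 10.8% of fitted genes called as higher and the 7.62% called as lower. Of 11 genes for eIF2, its exchange factor eIF2B and the catalytic subunits of protein phosphatase 1, 1 rose, none fell, and the median log2 fold change was -0.02. EIF2S2, the beta subunit of eIF2, rose from 184 ± 36.3 to 277 ± 32.5 TPM (0.59 ± 0.14 SE, limma adjusted p 0.0213). EIF2S1, the subunit that the kinases phosphorylate, was at 44.4 and 46.4 TPM in DMSO and at 35.7 and 36.3 TPM in JG342 and did not pass (-0.32, limma adjusted p 0.0649), nor did PPP1CC, a catalytic subunit of the phosphatase (-0.30, limma adjusted p 0.0630). EIF2S1 is named although it falls outside the rule for named genes. After scaling to equal medians none of the 11 was called as higher and 2 as lower. The call of EIF2S2 was also lost without DMSO replicate 1, without JG342 replicate 2, without the filter on low values and without the mean-variance trend. Rescaling without the 10 highest genes gave 2 called as lower, as did the replicate block. Quantile normalization gave 1 as lower, and the block with median scaling 4. In each of these fits 1 of the 11 was called as higher.

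Of 10 partners of GCN2 and PKR, 1 was called as lower and none as higher (median 0.06, and -0.01 after scaling to equal medians). None was called as lower without DMSO replicate 1, without DMSO replicate 2 or without JG342 replicate 1. RPLP0, a protein of the ribosomal stalk that activates GCN2, was at 3319 ± 57.2 and 3900 ± 71.8 TPM (0.23, limma adjusted p 0.114) and did not pass.

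Of 12 mitochondrial proteases and proteins that act with OMA1 or DELE1, 2 rose and 1 fell, around a median of -0.04 that turned to 0.03 under quantile normalization. LONP1, the matrix protease that degrades unfolded proteins, rose from 130 ± 10.9 to 277 ± 22.9 TPM (1.09 ± 0.11 SE, limma adjusted p 0.000414). HAX1, a mitochondrial protein known for its role in neutrophil survival, rose from 292 ± 46.8 to 507 ± 56.1 TPM (0.80 ± 0.13 SE, limma adjusted p 0.0046). PHB, prohibitin, which forms inner membrane scaffolds, fell from 257 ± 14.1 to 188 ± 14.5 TPM (-0.45 ± 0.10 SE, limma adjusted p 0.0156). With no filter on low values, 1 of the 12 was called as higher and none as lower. Without the mean-variance trend, none was called as lower. The count of rises held when single libraries were left out; PHB was called in 1 of those 4 fits.

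Of 10 ER stress sensors and ER J proteins, a list without members, 6 rose and none fell, with a median of 0.46. ERN1 (IRE1), the ER sensor that splices XBP1 mRNA, rose from 51.3 ± 4.62 to 197 ± 16.3 TPM (1.92 ± 0.11 SE, limma adjusted p 3.76e-05). ATF6, the other sensor in this list, which leaves out EIF2AK3, differed by -0.02 (limma adjusted p 0.960). HYOU1 and HSPA5, ER chaperones, rose by 0.83 and 0.47 (limma adjusted p 0.00135 and 0.0158). The J proteins DNAJB9, SEC63 and DNAJC1 rose by 0.99, 0.42 and 0.49 (limma adjusted p 0.00434, 0.0259 and 0.026). With no filter on low values 2 of the 10 were called, and without the mean-variance trend 3.

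Of 13 genes that act downstream of phosphorylated eIF2, 12 were fitted, 10 of these rose and none fell, with a median of 2.22. ATF5 and VLDLR, named because they did not pass, differed by -0.05 and 0.25 (limma adjusted p 0.844 and 0.389). With no filter on low values 8 of the 13 were called as higher, and with limma's robust variance estimate 8 of the 12. ATF3 rose from 28.6 ± 3.01 to 136 ± 2.21 TPM and CEBPG from 25.1 ± 0.62 to 67.9 ± 0.45 TPM; both encode transcription factors. DDIT3, which encodes the factor CHOP that acts on the PPP1R15A promoter, was at 20.7 and 41.9 TPM in DMSO and 283 and 295 TPM in JG342 (3.25 ± 0.25 SE, limma adjusted p 0.000141). TRIB3, SESN2 and CEBPB rose by 3.34, 2.72 and 2.72 (limma adjusted p 3.76e-05, 4.27e-05 and 0.000223). ATF4, chosen after its values were seen, was at 420 and 788 TPM in DMSO and 1269 and 1476 TPM in JG342 (1.25 ± 0.24 SE, limma adjusted p 0.009). DMSO replicate 2 was above DMSO replicate 1 for PPP1R15A and for DDIT3 and ATF4, as for 9 of the 12. DMSO replicate 1 was the higher for 3 of the 12 and for 4922 of all 12042 fitted genes. That the listed genes rise in these libraries was known when the list was drawn up.

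Of 33 interferon-stimulated genes, listed because EIF2AK2 is one of them and not counting it, 25 were fitted, 5 rose and none fell, around a median of -0.07. STAT2 and IRF9, which are parts of the factor that binds the ISRE, rose by 0.73 and 0.86 (limma adjusted p 0.00328 and 0.0122). OAS1, which makes the activator of RNase L, and IFIT5, an RNA-binding antiviral protein, rose by 0.57 and 0.66 (limma adjusted p 0.012 and 0.0446). Without DMSO replicate 2, 1 of the genes was called as higher, and without DMSO replicate 1, 3. With no filter on low values, 2 of the 33 were called as higher and 1 as lower, and without JG342 replicate 1, 4 as higher and 2 as lower. After scaling to equal medians or quantile normalization, 4 were called as higher and 1 as lower. Requiring a level of 5 TPM left 21 genes, 5 called as higher and 1 as lower, with a median of 0.15. Of the 8 genes under the filter, USP18 and IFI44, chosen after their values were seen, were lower in both JG342 libraries than in both DMSO libraries. USP18 had means of 1.16 and 0.27 TPM and IFI44 of 1.43 and 0.38 TPM. MX2 was lower as well, with means of 0.255 and 0.115 TPM. IFI27 went the other way, from a mean of 0.605 TPM in DMSO to 1.1 TPM in JG342 without overlap. For IFIT2, OASL, IFI44L and PARP9 the treatments overlapped.

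**Figure D4:**
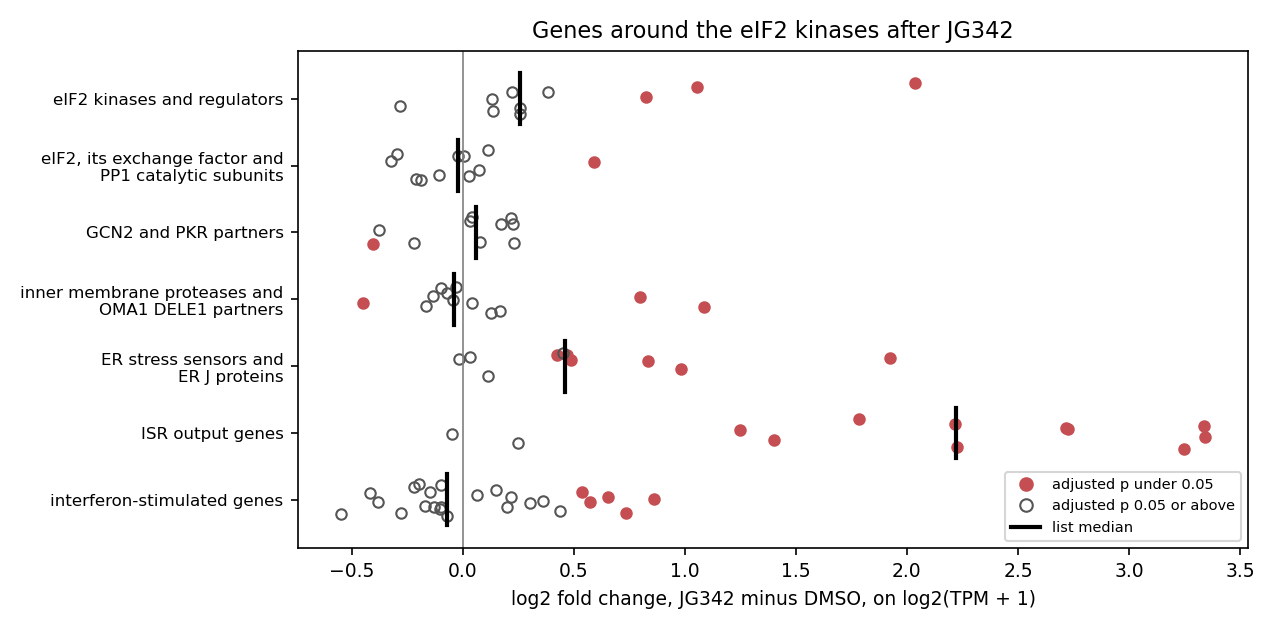
Log2 fold changes, JG342 minus DMSO on the log2(TPM + 1) scale, of the fitted genes in each list; filled red points passed the adjusted threshold of 0.05, open points did not, and black bars are list medians. The list of ISR output genes has a median of 2.22, the ER list 0.46, and the eIF2 kinases and regulators 0.26. Medians are -0.02 for the list with eIF2 subunits and -0.04 for the mitochondrial proteins, with single genes up to 0.59 and 1.09. They are 0.06 for the GCN2 and PKR partners and -0.07 for the interferon-stimulated genes.

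The genes whose 4 values, centred on their DMSO mean, lay nearest to each member that rose were named as a description of 4 libraries. For EIF2AK4 these were ACTR10, RAB43 and CYP2R1, at Euclidean distances of 0.03, 0.06 and 0.08 on the log2(TPM + 1) scale. For IMPACT they included FECH and CCNG1, at 0.03 and 0.05. For PPP1R15A they were ALOX5AP, BEX1 and GTPBP2, at 0.17, 0.24 and 0.27. BEX1 had a mean of 0.13 TPM in DMSO and 3.83 TPM in JG342, and it passed the filter of 1 TPM only through JG342. Its nearness to PPP1R15A depends on the 1 TPM added before the log.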

How the data were processed

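RNA was sequenced from MM.1S cells treated with JG342 or DMSO, 2 libraries each. The authors deposited 1 value per gene and library, taken as TPM because each library sums to nearly the same total. The submitters' processing notes name HISAT2 2.0.4, Bowtie2 2.2.5 and RSEM 1.2.12, with no role; build, annotation and filters are not given in the sources used here. TPM keeps no depth, so no counting interval is given.

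Values were transformed to log2(TPM + 1), which understates changes of low genes. Genes at a mean level of 1 TPM or more, 12042 in all, were fitted with limma 3.58.1 in R 4.3.3 (eBayes with a mean-variance trend; 2 residual and 6.89 prior degrees of freedom). Tests were two-sided, with a Benjamini-Hochberg threshold of 0.05. The script was first tested on simulated data. Shares were compared with exact permutation tests (scipy 1.17.1). A second fit added a block for the replicate number. Same-numbered libraries share a prefix in the labels' descriptions, and their deviations from the treatment means correlated across genes at 0.275.

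Transcripts were searched with BLAST 2.17.0 against GENCODE 29 for copies of at least 95% identity over at least 20% of their length, and no member had one. Of 138 listed genes and markers, 131 were matched by symbol, 1 of them by an older one. The named genes are every member, up to 6 called genes of each list by smallest p (at least 2 genes a list), and the 3 nearest profiles of each called member; a few of these genes are counted in their lists but not reported here by name. The members and lists were chosen with earlier results of these data known. Alternatives varied the pseudocount, filter, scaling, variance model, block and libraries.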

Additional observations from a re-analysis of the deposited data

How the results depend on the processing

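PPP1R15A and EIF2AK4 passed under all 15 alternatives, with log2 fold changes of 1.84 to 2.23 and 0.94 to 1.17. IMPACT passed under 14, with 0.73 to 0.92; the exception was the fit without DMSO replicate 1, where 1 control library stands alone and is assumed to vary like the treated ones. EIF2AK1, EIF2AK2, OMA1 and DELE1 passed under none. EIF2AK3 did not pass either; it reversed, to -0.12, without JG342 replicate 1, and was 0.38 without JG342 replicate 2. The replicate block raised the number of members called from 3 to 5 and of genes from 2221 to 4207 (3985 genes with the block and median scaling); the block alone left 1 residual degree of freedom and an infinite prior, so each gene's variance came from the trend, and apart from PPP1R15B and DNAJC3 it changed no member's call. Without a filter on low values 828 genes passed. Leaving out single libraries gave 773 genes (without DMSO replicate 2) to 1905 genes (without JG342 replicate 2), with 1060 without DMSO replicate 1, and 2 to 4 members; fewer samples entered these fits. Higher genes made up 58.7% of calls, 44.6% after scaling to equal medians and 42.0% with the block in addition, 50.8% after quantile normalization and 75.2% without DMSO replicate 2. When single libraries were left out, the difference in kinase share ran from -7.44 to 0.12 percentage points for EIF2AK1, reversing without JG342 replicate 1, from -4.65 to 1.19 for EIF2AK3, reversing without JG342 replicate 2, from -3.43 to -1.83 for EIF2AK2 and from 7.56 to 8.48 for EIF2AK4. Depth is not recorded in TPM, so limits set by read number could not be given.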
